A study of Homo sapiens with 4 samples.

Results

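The H3K4me3 peaks found only in RS4;11 cells were 10696 of the 24212 distinct H3K4me3 peaks of that line, or 44.2% (95% Wilson interval 43.6 to 44.8%). They were chosen by position: each is an interval of the RS4;11 H3K4me3 peak list that shares no base with any of the 26523 H3K4me3 intervals of THP-1. The remaining 13516 RS4;11 peaks shared at least 1 base with a THP-1 peak and are called shared. In the other direction, 12779 THP-1 peaks (48.2%) shared no base with RS4;11. The values that chose the members are the peak calls themselves, so counts of members, their genes and the widths and flags in the same 2 lists are given as descriptions with no test.

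The study profiled WDR5 and H3K4me3 by ChIP-seq, with 1 sample of each antibody in each line and no replicates. RS4;11 is a human acute lymphoblastic leukemia line that carries a KMT2A-AFF1 fusion, and THP-1 is a human acute myeloid (monocytic) leukemia line that carries a KMT2A-MLLT3 fusion. Both were untreated and grown in RPMI1640 with 10% FBS, so a rearranged KMT2A gene is shared by all groups. The GEO label of the RS4;11 H3K4me3 sample names it myeloid and that of the THP-1 WDR5 sample names it lymphoblastic, against the line names, which were followed here. Each line stands for 1 clone of cells, and difference of lineage, of donor and of culture cannot be told apart between them. The peak lists hold no tag counts or peak heights, so the depth is unknown, and intervals over peaks cover counting over peaks only.

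H3K4me3 is trimethylation of lysine on the tail of histone H3, written by the KMT2 and SETD1 methyltransferase complexes, of which WDR5 is a shared subunit. It is strongest over the 5′ ends of active or poised genes, above all at CpG islands, and weaker deposits occur at active enhancers inside and between genes. In B-cell precursors the factors EBF1, PAX5, E2A (TCF3) and RUNX1 act together at such elements to install the B-cell program, while C/EBP factors and PU.1 do so in monocytic cells.

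Most members were narrow and lay inside introns. Their width ranged from 171 to 4478 bp with a median of 896 bp (quartiles 635 and 1341 bp), against a median of 2091 bp in shared RS4;11 peaks and 863 bp in THP-1-only peaks. An intron flag without an exon flag means that the authors placed the peak in an intron of a RefSeq transcript and in no exon. It was carried by 5886 members (55.03%, 95% Wilson interval 54.1 to 56.0%), by 16.4% of shared peaks and by 44.3% of THP-1-only peaks. An exon flag was carried by 2251 members (21.05%), against 67.0% of shared peaks and 28.2% of THP-1-only peaks.

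A transcript 5′ end was covered, meaning that 1 transcript was flagged both as exonic and as within 20 kb upstream, by 921 members (8.61%, 95% Wilson interval 8.09 to 9.16%), by 60.8% of shared RS4;11 peaks and by 17.2% of THP-1-only peaks. Peaks with this pair of flags nearly all held a transcript start of GENCODE, an independent annotation: 9105 of 9133 RS4;11 peaks on chromosomes 1-22 and X (99.7%). GENCODE also placed starts in peaks without these flags. Among members on these chromosomes, 1779 of 10668 (16.7%) held a start of any transcript and 1167 (10.9%) held one of a coding transcript. Members that covered a 5′ end were wide, with a median of 2753 bp, whereas intron-only members had a median of 836 bp and those with neither flag 806 bp. Of the members, 2559 (23.9%) had neither an exon nor an intron flag and were listed only because a transcript lay within 20 kb. The same held for 16.6% of shared RS4;11 peaks and 27.5% of THP-1-only peaks. By these flags the members comprised a large narrow, mostly intronic group and a small wide group at gene starts.

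The share of RS4;11 peaks that were members depended on width and was lowest in the middle of the range. It was 75.4% under 500 bp, fell to 11.3% from 2500 to under 3000 bp and then rose to 37.6% (95% Wilson interval 31.0 to 44.8%) at 4200 bp or more. Among peaks covering a 5′ end the same share was 4.39% from 2000 to under 2500 bp and 37.6% at 4200 bp or more, and THP-1-only peaks followed the same course, from 13.9% of THP-1 peaks from 3000 to under 3500 bp to 29.5% at 4200 bp or more.

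**Figure D1:**
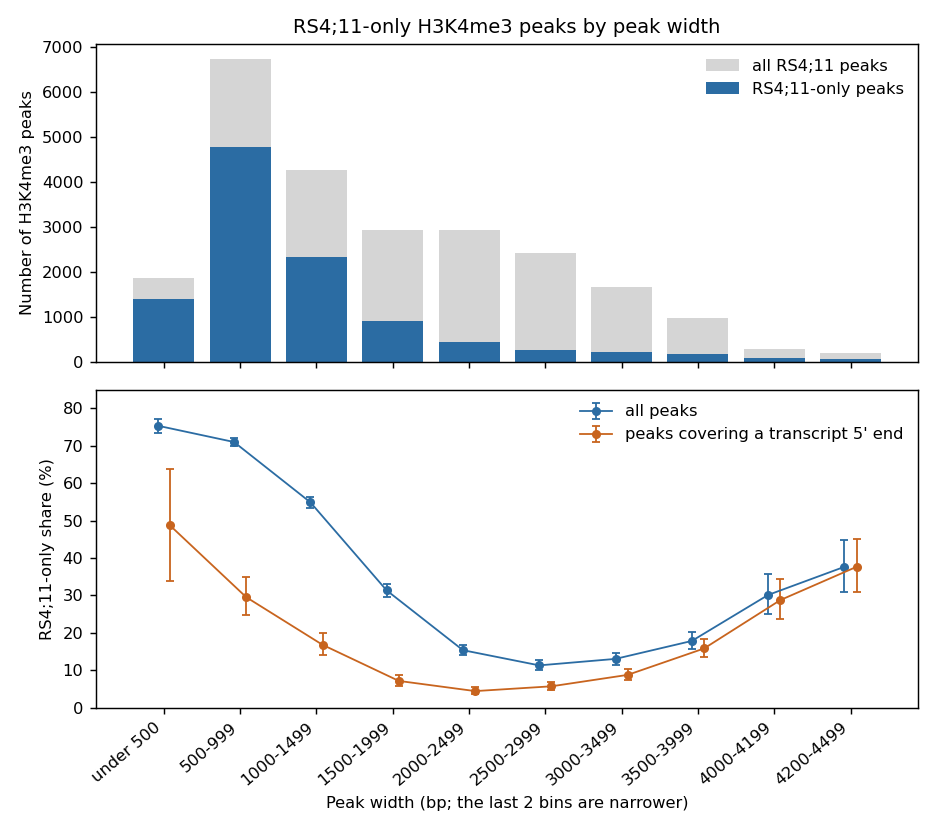
Upper panel, number of RS4;11 H3K4me3 peaks in each width bin (bp), all in grey and RS4;11-only in blue. Lower panel, share that was RS4;11-only (%) for all peaks and for peaks covering a transcript 5′ end, with 95% Wilson intervals as bars. Both shares fall to a minimum between 2000 and 3000 bp and rise again at the widest peaks.

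Neither list held a wider peak. The widest intervals were 4478 bp in RS4;11 and 4446 bp in THP-1, although 168 RS4;11 peaks lay at 4200-4399 bp, and many genes that every cell uses had no peak over their starts. Of 16 housekeeping genes, 11 had no peak over a 5′ end in either line, among them ACTB (cytoplasmic actin) and GAPDH (a glycolytic enzyme). A gene without a peak in 1 of these lists therefore cannot be read as a gene without the mark, and the part of this upper limit in the choice of members was not tested. Of the members, 329 (3.08%) were 3500 bp or wider.

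Genes of the B lineage gave a mixed picture at their starts. Of 41 B-lineage genes in 3 lists (transcription factors, surface and pre-B receptor genes, V(D)J recombination genes), 10 (24.4%) had an exon-flagged member, beside 12% of all 18494 genes named in either list, and 29 had a member with any flag, beside 8450 of the 18494 genes. Exon-flagged THP-1-only peaks were found at 17 of the same 41 genes, beside 18.8% of all genes. A peak over a 5′ end was present for 16 of the 41 in RS4;11, for 22 in THP-1 and for 13 in neither, beside 54.0%, 58.1% and 33.4% of all genes. Shared exon-flagged peaks were found at 13 of the 41, beside 52.9% of all genes. Because the member rule used these calls, nothing is read from the shares.

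The starts that carried members are illustrated by CD79A and POU2AF1. CD79A encodes a signaling chain of the B-cell receptor. It had 3 members, a 2816 bp peak over its start on chromosome 19 (chr19:42380420-42383235) and upstream peaks of 1125 and 4027 bp, while THP-1 had 1 peak downstream of the gene, which was shared. POU2AF1, a B-cell coactivator that works with octamer factors, had a single 3337 bp member over its start and was not named in THP-1 at all. In both genes RS4;11 had a peak over the start and THP-1 had none.

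Sequence upstream of the CD79A start differed in CpG content from that of PPIA, a housekeeping gene (cyclophilin A) whose start was also a member, with a 3945 bp peak. The 200 bases of the GRCh37 (hg19) reference upstream of the annotated start, moved outward where an annotated exon lay in the way, are shown 5′ to 3′ in the sense of the gene for CD79A, PPIA and the immunoglobulin segment IGHV6-1 described further on, to set 1 B-cell gene and 1 immunoglobulin segment beside 1 housekeeping gene, a choice of single starts and not a comparison of gene classes. Capitals mark exact matches on either strand to the short motif letters searched here (EBF1 CCCNNGGGA, PAX5 GCGTGAC, E-box CAGGTG, octamer ATGCAAAT, ETS CCGGAAGT, PU.1 GAGGAAGT, RUNX TGTGGTT, C/EBP TTGCNNAA, of which ETS and PU.1 end in the same letters).
CD79A (chr19:42381149-42381348, plus strand): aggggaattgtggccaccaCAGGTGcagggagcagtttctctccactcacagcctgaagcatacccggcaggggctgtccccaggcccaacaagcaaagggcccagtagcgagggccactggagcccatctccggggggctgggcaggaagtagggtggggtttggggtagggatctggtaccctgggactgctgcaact
PPIA (chr7:44836079-44836278, plus strand): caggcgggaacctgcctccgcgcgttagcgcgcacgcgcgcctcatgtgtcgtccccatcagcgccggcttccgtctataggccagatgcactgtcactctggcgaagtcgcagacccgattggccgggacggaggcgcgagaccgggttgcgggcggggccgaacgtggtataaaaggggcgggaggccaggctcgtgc
IGHV6-1 (chr14:106406109-106406308, minus strand): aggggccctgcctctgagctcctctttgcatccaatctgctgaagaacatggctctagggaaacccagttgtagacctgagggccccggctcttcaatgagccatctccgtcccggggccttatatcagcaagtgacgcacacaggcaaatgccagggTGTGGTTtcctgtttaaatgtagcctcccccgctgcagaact
The ratio of observed to expected CpG was 0.152 for CD79A, 0.321 for IGHV6-1 and 1.14 for PPIA. The CD79A stretch held 1 E-box match and that of IGHV6-1 held 1 RUNX match, while that of PPIA held none.

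Members also covered the starts of IRF8, POU2F2, LMO2, HHEX and SPI1. IRF8, a lymphoid and myeloid interferon regulatory factor, had 5 members, of which the one over its start was 1410 bp, and no THP-1 peak within 20 kb of that start. POU2F2, which encodes the octamer factor OCT2, had a member of 1946 bp over a start. LMO2, a hematopoietic adaptor and a target of KMT2A fusions, had members of 4150 and 1941 bp over its starts. HHEX, a homeobox factor of progenitors, had one of 3989 bp. SPI1, which encodes PU.1 and is most used in myeloid cells, had a 3100 bp member over its start and no THP-1 peak there, so members were not limited to B-lineage genes. Other exon-flagged members at listed B-lineage genes did not cover a 5′ end: IRF4 775 bp, CD37 908 bp, BLK 675 bp, BTK 1541 bp and FCRLA 697 bp. The starts of IRF4, CD37 and BTK were covered by shared peaks.

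**Figure D2:**
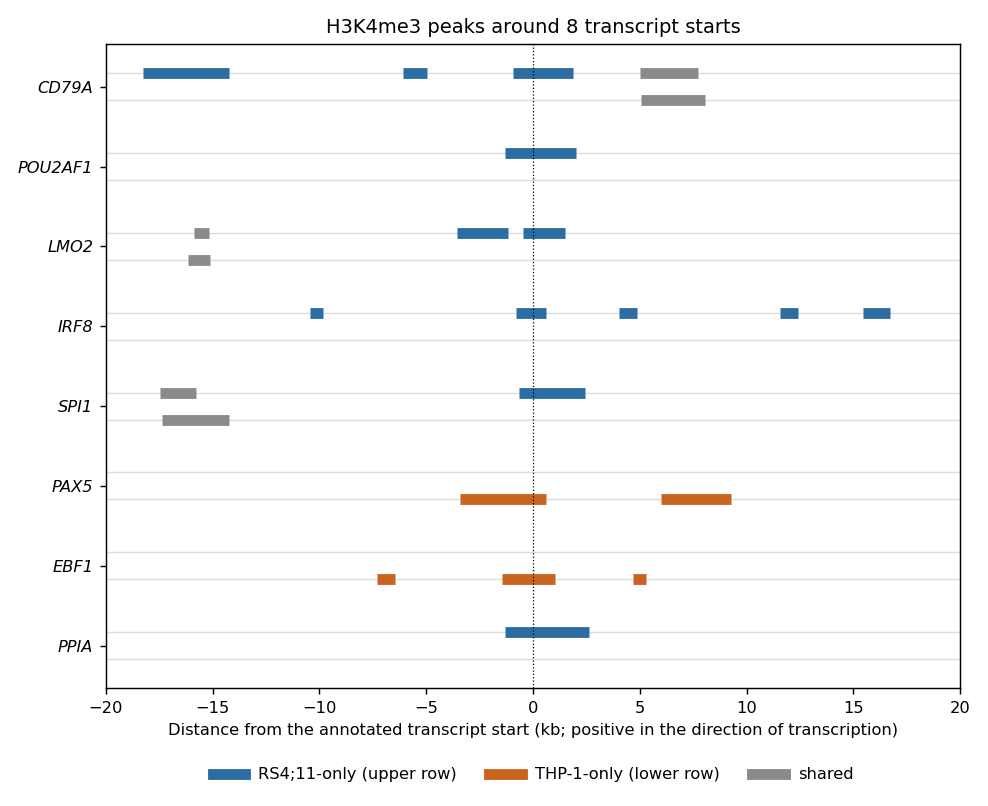
H3K4me3 peaks within 20 kb of 8 annotated transcript starts, as distance from the start in kb, with RS4;11 in the upper and THP-1 in the lower row of each gene. RS4;11-only peaks (blue) cover the starts of CD79A, POU2AF1, LMO2, IRF8, SPI1 and PPIA, and THP-1-only peaks (orange) cover those of PAX5 and EBF1.

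The master regulators PAX5 and EBF1 went against a simple reading of the members as B-lineage starts. PAX5 was not named in RS4;11 at all, and its start was covered by a 4037 bp THP-1-only peak. EBF1 had 5 members, 4 in introns (611, 1435, 2373 and 2758 bp) and 1 downstream (1289 bp), while its start was covered by a 2472 bp THP-1-only peak. With no RS4;11 peak listed over the starts of PAX5 and EBF1, and CD79A with one, 1 of these 3 marker genes had a member over its start. Given the upper limit of the widths, a start without a listed peak cannot be read as a start without the mark. IGLL1, a surrogate light chain of the pre-B receptor, had a 1584 bp member downstream, and RAG1, a recombinase subunit, had a 690 bp member upstream of it. Other listed genes of these groups had no member. RAG2 was not named in RS4;11 and had an exon-flagged THP-1-only peak. DNTT had only a shared upstream peak, and VPREB1 was named in neither line. CD22, an inhibitory B-cell co-receptor, had a shared peak over its start of 2769 bp in RS4;11 and 653 bp in THP-1. CD22 also had members of 803 and 2031 bp upstream and of 807 bp downstream. CD79B, the partner chain of CD79A, had no member, and its shared peak of 2921 bp covered the start in RS4;11 while the THP-1 peak of 946 bp there was flagged exon and intron only.

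Listed genes of other lineages carried exon-flagged members too, to be read beside the 12% of all genes that had one. These were 5 of 15 T-cell genes (CD2, CD3D, LCK, ZAP70 and BCL11B), 3 of 24 myeloid genes (SPI1, ITGAM and CTSG), 3 of 9 stem and progenitor genes (GATA2, HHEX and MECOM), 2 of 16 KMT2A fusion targets (LMO2 and BCL2), 2 of 12 HLA class II genes (HLA-DQA1 and HLA-DQB1), 2 of 7 NK-cell genes (NCAM1 and GNLY), 2 of 11 erythroid and megakaryocyte genes (EPOR and ITGA2B), 1 of 16 housekeeping genes (PPIA) and 0 of 16 non-hematopoietic genes. The widest in the T-cell list was a 3650 bp member over the start of ZAP70, a kinase of T-cell receptor signaling that is also found in some B-cell leukemias. At the KMT2A fusion targets MEIS1, HOXA5, HOXA7, HOXA9 and FLT3 RS4;11 had no peak of any flag, and THP-1 had exon-flagged peaks at all of these but HOXA9.

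**Figure D3:**
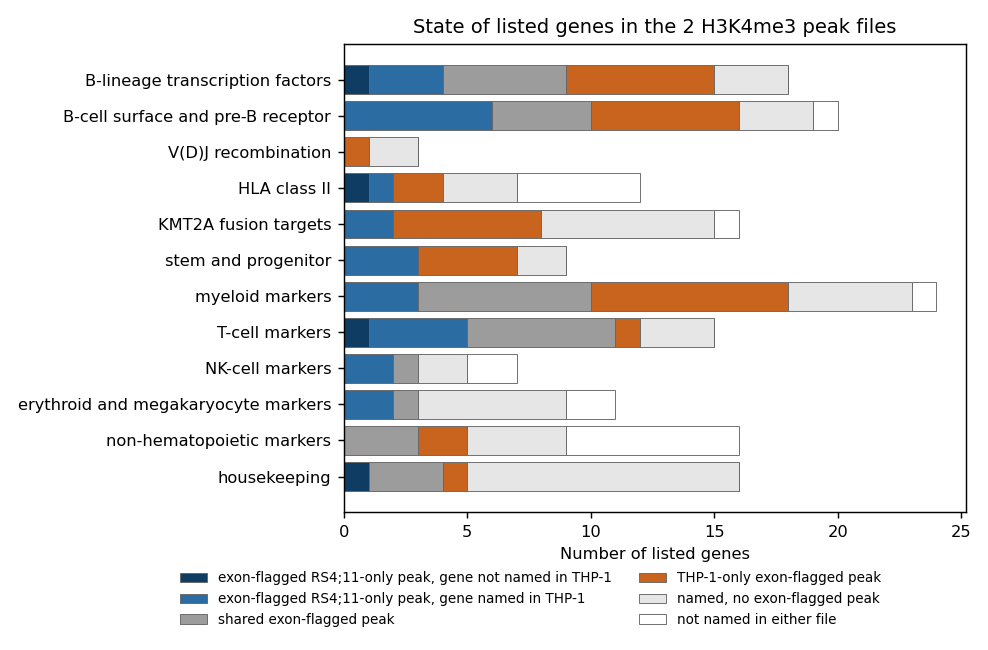
Number of listed genes in each state of the H3K4me3 peak lists, for 12 gene lists, with each gene counted once in the first state that applies in the order of the legend. Exon-flagged RS4;11-only peaks (dark and mid blue) occur in 10 of the 12 lists and in none of the V(D)J and non-hematopoietic genes.

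The strictest set of genes, those with an exon-flagged member and not named anywhere in the THP-1 H3K4me3 list, numbered 341 of 18494 (1.84%). The same rule with the lines exchanged gave 1042 genes (5.63%). Of the 341, 231 had the 5′ end covered and 289 were coding. Their widest exon-flagged member had a median of 2007 bp, 83 genes lay under 1000 bp, and 86 (25.2%) were at 3500 bp or more, 84 of the latter with the 5′ end covered.

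The 20 strict genes with the widest members had members of 4227 to 4391 bp, all over a 5′ end. They included PSMG2 (a proteasome assembly chaperone, 4391 bp), YARS (now YARS1, a tRNA synthetase, 4385 bp), UGP2 (UDP-glucose synthesis, 4345 bp), NASP (a histone chaperone, 4307 bp), SENP6 (a SUMO protease, 4292 bp), GMNN (geminin, a replication licensing inhibitor, 4285 bp), TAF11 (a subunit of TFIID, 4231 bp) and ZNF800 (4228 bp), and also the noncoding C21orf49 (4316 bp), the microRNA gene MIRLET7I (4232 bp) and INPPL1 (a lipid phosphatase, 4253 bp). Their members lay close to the widest interval of the file (4478 bp), and how far that upper limit placed them in the set was not tested.

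A few further strict genes are given as single values, which make no theme of the 341, since the set also held genes such as VWF (a clotting protein of endothelium, 2007 bp) and MUC6 (a mucin of the stomach, 1986 bp). They were named after their values were seen, apart from the listed genes CD2 and HLA-DQA1 and from CD93, which falls under the WDR5 rule. GCET2 (now GCSAM, a germinal center B-cell protein) had a 3795 bp member over its start and 2 further members. IGLL5, which lies in the immunoglobulin lambda locus, had a 2336 bp member over its start. MIR155HG, the host gene of the microRNA miR-155 that is abundant in activated B cells, had a 2568 bp member. CD93 and THBD, neighboring genes of C-type lectin-like receptors on chromosome 20, had members of 2703 and 2693 bp over their starts. CD2, a T-cell and NK-cell adhesion receptor, had 3 members of which the exon-flagged one was 1150 bp.

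Of 6 strict microRNA genes, 5 matched the RefSeq table. Mature sequences of those in a lymphoid locus or of the widest group are shown with the seed (bases 2 to 8) in capitals, and their seeds differ from each other.
hsa-miR-155-5p: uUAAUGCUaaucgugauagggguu
hsa-miR-650: aGGAGGCAgcgcucucaggac
hsa-let-7i-5p: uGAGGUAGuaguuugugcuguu
MIR155 had its 2568 bp member in common with MIR155HG, MIR650 in the lambda locus had 1 of 1798 bp, and MIRLET7I had 1 of 4232 bp.

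HLA-DQA1, an HLA class II chain, was strict on a 483 bp member. The exon-flagged member of HLA-DQB1 (683 bp) lay on an alternative haplotype sequence of chromosome 6, while its start on the reference chromosome had a shared peak. On those 6 haplotype sequences, 26 of 27 RS4;11 peaks were members, beside 11 of 14 in the reference MHC interval of chromosome 6. Reads were kept only where they aligned uniquely, and the part of HLA haplotype in these calls was not tested.

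The antigen receptor loci were chosen after their values were seen. All 10 RS4;11 peaks in the immunoglobulin heavy locus (IGH, chr14:106053226-107288019) were members and THP-1 had 0 peaks there. Among them were peaks over the V segments IGHV6-1 (2488 bp), IGHV1-2 (2132 bp), IGHV3-23 (533 bp) and IGHV2-26 (1121 bp). In the lambda locus (IGL) 6 of 8 RS4;11 peaks were members and THP-1 had 6 peaks, in the kappa locus (IGK) neither line had any, and the T-cell receptor alpha and delta locus held 1 member of 2 RS4;11 peaks. The T-cell receptor gamma locus likewise had RS4;11 peaks alone, with 1 member and 0 THP-1 peaks, and the beta locus had 1 shared peak and no member. The widest of the IGH members, over IGHV6-1, contains the upstream bases shown above.

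Members were spread along chromosomes in short runs with a few long ones. The median distance to the nearest THP-1 H3K4me3 peak was 17356 bp (quartiles 6518 and 44684 bp). At the edge of the rule, members at LEMD3 and BLNK lay 3 and 7 bp from a THP-1 peak, while peaks at STAG2 and CRTC3 counted as shared on 1 and 11 bases. In all, 32 members had a THP-1 peak within 100 bp and 339 (3.17%) within 1000 bp. Counting along each chromosome without an intervening shared or THP-1 peak, 4316 members stood alone and 206 lay in 16 runs of 10 or more.

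The longest run was the gene AUTS2, a transcriptional regulator known from brain development, with 26 consecutive members over 993 kb (chr7:69087218-70079903), all in introns and none flagged as exonic. Their widths were 479 to 3424 bp with a median of 1023 bp, at 2.18 members per 100 kb of gene, and THP-1 had 2 peaks in the gene, neither shared. The next runs were 25 members over MYT1L, SNTG2 and TSSC1 on chromosome 2, 17 over ADARB2 and WDR37 on chromosome 10, 12 over EBF3 and MGMT on chromosome 10, and 12 over CAPN13, GALNT14 and LCLAT1 on chromosome 2. Most of these genes are not known as B-cell genes.

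Of the 4746 genes with a member in an exon or intron, 3035 had 1 and 29 had 10 or more. After AUTS2 the largest numbers were in TRAPPC9 (22), RAD51L1 (now RAD51B, 17), CACNA1C and DMD (14 each), CNTNAP2 and OPCML (13 each), and MAD1L1, MSI2 and PLCB1 (12 each). These genes are long, and per 100 kb the order changed: TRAPPC9 had 3.02, MAD1L1 2.87, MSI2 2.80 and DMD 0.624. MSI2, an RNA-binding protein of progenitors, also held 9 THP-1-only peaks, whereas OPCML held 0.

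Base composition, which the rule did not use, differed between members and shared peaks, in part along with their flags. In windows reaching 250 bp to each side of the peak center the median GC content was 47.1% in members, 60.1% in shared RS4;11 peaks and 47.1% in THP-1-only peaks. CpG-rich windows (GC of at least 50% and an observed to expected CpG ratio of at least 0.6) made up 7.95% of members, 53.9% of shared peaks and 21.5% of THP-1-only peaks. The medians were closer in intron-only peaks, at 44.9% GC in members and 45.9% in shared peaks, and over 5′ ends, at 61.7% and 64.1%. They stayed further apart in exon-flagged peaks that covered no 5′ end (49.7% and 60.1%). Peaks with neither an exon nor an intron flag had medians of 47.9% and 54.9%. CpG-rich windows made up 1.46% of intron-only members and 9.81% of intron-only shared peaks, and 56.5% and 72.4% over 5′ ends. In exon-flagged peaks that covered no 5′ end they made up 6.67% and 39.5%, and with neither flag 6.15% and 34.6%.

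Intron-only members held the EBF1, RUNX and E-box letters more often than intron-only THP-1-only peaks did, but not the PAX5 letters (1.58% and 1.57%), and they held the octamer less often (2.62% and 3.38%). The EBF1 letters CCCNNGGGA were present in 947 of 5882 such member windows, or 16.1% (95% Wilson interval 15.2 to 17.1%), and in 317 of 5655 THP-1-only windows, or 5.61% (5.04 to 6.24%). The difference was 10.5 percentage points (95% Newcombe interval 9.38 to 11.6). The RUNX letters TGTGGTT were present in 21.7% and 11.9% of the windows, a difference of 9.86 points (8.51 to 11.2). EBF1 is the founding factor of the B lineage and RUNX1 acts with it, although an exact match is only a description of letters and not a bound site.

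The C/EBP and PU.1 letters were less frequent in intron-only members. The C/EBP letters TTGCNNAA were present in 22.7% of intron-only members and 36.4% of THP-1-only windows, a difference of -13.7 points (-15.3 to -12.0), and the PU.1 letters GAGGAAGT in 6.78% and 9.67%, a difference of -2.89 points (-3.90 to -1.89). Windows are not independent replicates and each class comes from 1 sample, so these intervals cover counting over windows only. Shared intron-only RS4;11 peaks lay between the classes for EBF1 (12.0%), RUNX (18.6%) and C/EBP (26.1%), but above both for PU.1 (9.95%), PAX5 (2.44%) and the octamer (3.48%). The E-box letters CAGGTG were in 28.4% of intron-only members and 22.9% of THP-1-only windows.

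Matches were more frequent toward the peak centers for some motifs. In intron-only members the EBF1 letters were found in 7.599% of peaks in the 200 bp before the center and in 2.52% of peaks 801-1000 bp before it, against 2.58% and 2.16% in THP-1-only peaks. For RUNX the values were 9.55% and 3.77% in members and 5.15% and 3.63% in THP-1-only peaks. For C/EBP they were 10.5% and 9.37% in members and 17.2% and 10.4% in THP-1-only peaks, so that EBF1 letters rose toward the center mainly in RS4;11 and C/EBP letters in THP-1, while RUNX and PU.1 letters rose toward the center in both.

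**Figure D4:**
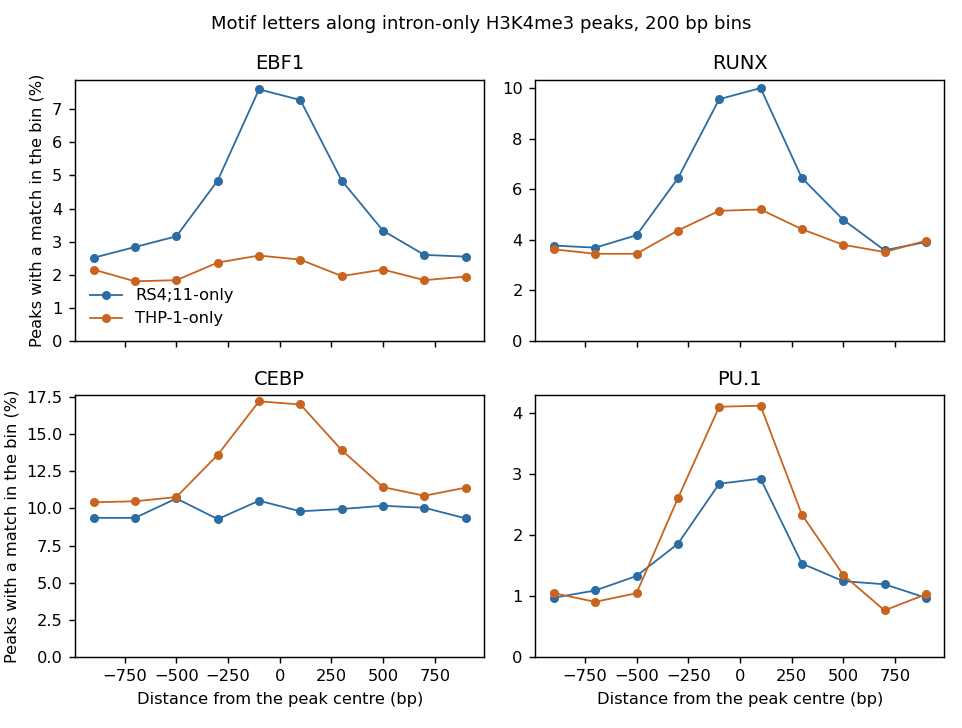
Share of intron-only peaks with a match to the motif letters (%) in 200 bp bins by distance from the peak center (bp), for RS4;11-only (blue) and THP-1-only peaks (orange), each panel with its own scale from 0. EBF1 letters reach 7.599% at the center of RS4;11-only peaks and C/EBP letters (panel CEBP) at 17.2% at the center of THP-1-only peaks.

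Base composition moved with the classes, since the median GC of intron-only windows was 44.9% in members and 43.1% in THP-1-only peaks. At 45-50% GC the EBF1 letters were in 18.2% of 1173 member windows and 5.41% of 1146 THP-1-only windows, and in each of the 5 bins from 35 to 60% GC the member share of EBF1 and of RUNX was higher and that of C/EBP lower. The RUNX intervals overlapped at 55-60% GC (14.4 to 20.6% and 7.47 to 15.1%). The PU.1 share was lower in each bin too, but its intervals overlapped in 3 of the 5, at 40-45% (7.30% and 9.48%), 50-55% (8.29% and 11.0%) and 55-60% GC (9.25% and 9.52%). The EBF1 letters read backwards (AGGGNNCCC), which have the same composition, were in 7.92% and 5.15% of the windows, and the RUNX letters read backwards (TTGGTGT) in 7.43% and 6.12%.

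**Figure D5:**
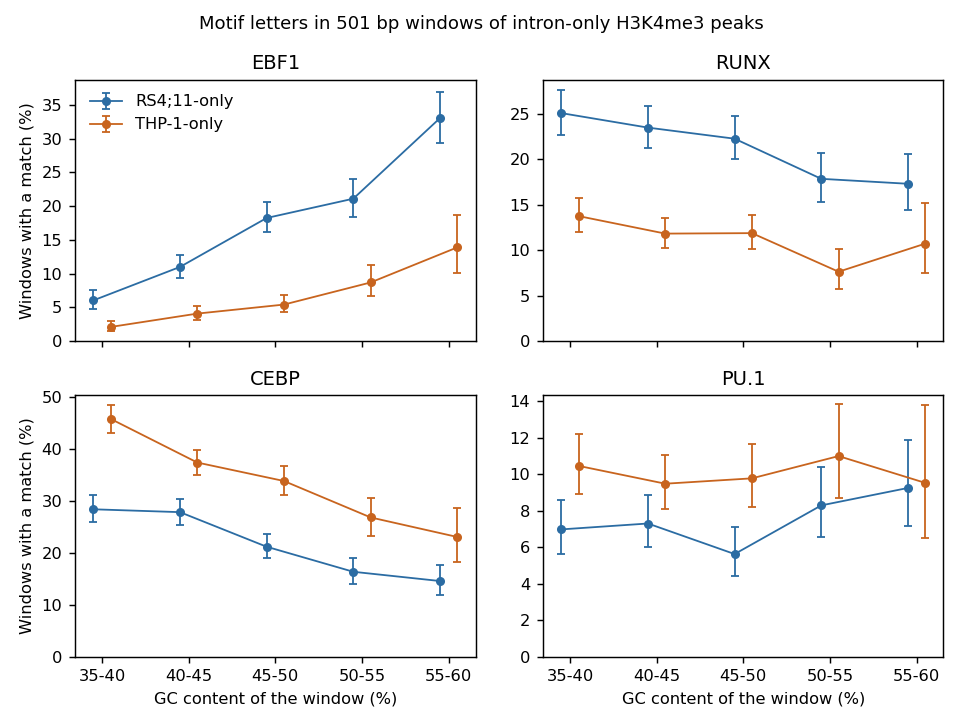
Share of windows reaching 250 bp to each side of the centers of intron-only peaks that hold a match to the motif letters (%), by GC content of the window (%), with 95% Wilson intervals as bars. In every GC bin the EBF1 and RUNX shares are higher and the C/EBP share (panel CEBP) lower in RS4;11-only (blue) than in THP-1-only (orange) peaks.

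Where a peak covered a 5′ end these differences were small. The EBF1 letters were in 18.7% of members over a 5′ end (95% Wilson interval 16.3 to 21.3%) and in 19.2% of such THP-1-only peaks (17.6 to 20.9%), and the C/EBP letters in 11.6% (9.67 to 13.8%) and 12.7% (11.4 to 14.2%). RUNX letters were in 6.34% (4.94 to 8.11%) and 4.81% (3.99 to 5.79%), with overlapping intervals. For these 3 motifs the intervals of the lines overlapped over 5′ ends and did not in intron-only peaks.

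The EBF1 letters were not more frequent in the few members at B-lineage genes. Of 49 members without an exon flag at the listed B-lineage genes, 5 (10.2%) held them, and of the 33 that were intron-only 4 (12.1%) did, against 16.1% of all intron-only members, and none of the 5 members at the EBF1 gene did. Examples from members of POU2F2, MME (which encodes CD10, the common acute lymphoblastic leukemia antigen), BACH2 (a B-cell repressor) and AUTS2 are printed as 101 bases of GRCh37 around the match, 5′ to 3′ in the sense of the gene, chosen because they hold it, with motif letters in capitals.
POU2F2 (chr19:42618276-42618376, minus strand): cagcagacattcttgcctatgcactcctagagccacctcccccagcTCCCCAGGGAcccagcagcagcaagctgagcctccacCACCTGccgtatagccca
MME (chr3:154829273-154829373, plus strand): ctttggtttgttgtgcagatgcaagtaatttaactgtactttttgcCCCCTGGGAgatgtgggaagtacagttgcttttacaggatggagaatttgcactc
BACH2 (chr6:90687627-90687727, minus strand): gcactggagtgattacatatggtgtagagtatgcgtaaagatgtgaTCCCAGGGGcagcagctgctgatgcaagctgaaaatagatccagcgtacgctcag
AUTS2 (chr7:69371417-69371517, plus strand): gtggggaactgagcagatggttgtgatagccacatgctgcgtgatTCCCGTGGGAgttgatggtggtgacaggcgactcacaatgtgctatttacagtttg
AUTS2 (chr7:70079729-70079829, plus strand): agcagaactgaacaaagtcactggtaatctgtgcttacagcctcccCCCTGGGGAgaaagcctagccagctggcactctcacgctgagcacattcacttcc
The EBF1 match lies at the middle of each stretch, and in AUTS2 3 of the 26 intronic members held one.

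WDR5 peaks were rare on the members. In RS4;11, 16 of 10696 members (0.150%, 95% exact interval 0.0855 to 0.243%) shared a base with 1 of the 703 WDR5 peaks of the line, against 42 of 13516 shared peaks (0.311%, 0.224 to 0.420%). Members are narrower, and per megabase covered the values were 1.306 and 1.4998 overlapped peaks. THP-1 WDR5 peaks shared a base with 3 members. The RS4;11 members with both an exon flag and a WDR5 peak were those of CD93 (2703 bp, with a WDR5 peak of 424 bp), EPN1 and U2AF2 (a 4014 bp peak between an endocytic adaptor and a splicing factor), C14orf49 (now SYNE3, 1079 bp) and GPR82 (1631 bp).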

How the data were processed

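H3K4me3 and WDR5 ChIP-seq was compared between RS4;11 and THP-1, with 4 samples and 1 per group. Samples were grouped by cell line and antibody in the labels. The members, gene lists and motif letters were chosen with earlier results of these data known.

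The authors fragmented H3K4me3 chromatin with micrococcal nuclease according to their methods, whereas the GEO protocol describes sonication. They aligned reads to hg19 with Eland (CASAVA 1.7 and 1.8.2 in the submitters' processing notes), allowing 2 mismatches and keeping unique alignments, and called peaks with MACS at default settings. The MACS version and any input control are not given in the sources used here. The deposited files list peak intervals with yes or no flags (20 kb upstream, 20 kb downstream, exon, intron) for each RefSeq transcript. They hold no count, height or p-value, so depth is unknown, and a peak over 20 kb from every transcript is not in them.

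Lines were reduced to distinct intervals with Python 3.11.15. A peak was shared when it had at least 1 base in common with a peak of the other line. Transcript starts came from GENCODE 44 lifted to GRCh37, and bases from GRCh37 through pyfaidx 0.9.0.4. Haplotype sequences and unplaced contigs were left out where these were used. Current gene names were matched by accession, for 314 of the 341 strict genes. Motif letters were searched on both strands. Shares have 95% Wilson intervals (exact for WDR5) and differences Newcombe intervals, from scipy 1.17.1. No significance test was run, as there are no replicates. Genes named were members of the lists, the 20 strict genes with the widest exon-flagged member, the 10 genes with most members, those in the 5 longest runs and those with an exon-flagged member on a WDR5 peak, and others are said to be chosen after seeing values. Overlap, width, chromosome and annotation settings were varied. The interval code was tested on simulated intervals with known overlaps. Some items are not reported here.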

Additional observations from a re-analysis of the deposited data

How the results depend on the processing

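Alternatives were judged by whether a count stayed within 1.5 times its value and a share or median within its 95% interval. Of 56 recomputed values 40 did and 16 did not, and none of the counts of members (8583 to 10857) moved that far. The strict set grew from 341 to 1238 genes when THP-1 lines without an exon flag were allowed, and among B-lineage genes from 1 to 4 (CD79A, FCRLA, IRF8 and POU2AF1). Members within 1000 bp of a start fell from 24.8% to 13.9% with coding starts only. Counting THP-1 peaks within 5000 bp as shared gave a median width of 878 bp and 22.2% outside transcripts. With peaks of at least 500 bp the median was 980 bp and the exon share 22.6%. The median GC over whole peaks was 46.4%, and WDR5 peaks within 1000 bp raised that share to 0.243%. Chosen after seeing the data, leaving peaks of 3500 bp or more out of both lists gave an exon share of 22.3% and 410 strict genes, since THP-1 lines are lost as well. In intron-only members a window of 100 bp to each side, also chosen after seeing the data, lowered the EBF1, RUNX and C/EBP shares to 7.89%, 10.4% and 9.76%, with an EBF1 difference from THP-1-only of 5.47 points, and windows of 45-50% GC, chosen likewise, gave 18.2% for EBF1, 21.1% for C/EBP and a difference of 12.8 points. The window of 100 bp to each side lies within the longer one, so its shares could only be equal or lower. Other causes were not tested. No paired analysis was possible because the results come from no test and each group has 1 sample. The unknown depth limits every statement on absent peaks.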

Other observations

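The share of RS4;11 peaks that were members differed between chromosomes 1-22 and X. Among these it was lowest on chromosome 19, at 29.7% of 1413 peaks (95% Wilson interval 27.3 to 32.1%), and highest on chromosome 13 (52.7%, 48.3 to 57.0%), chromosome 18 (52.3% of 463) and chromosome 8 (51.6% of 1027). Chromosome X had 38.9% of 646 peaks.

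The strict set also held genes of other tissues on narrow members, named after their values were seen. PLG, the plasma protein plasminogen of the liver, had an exon-flagged member of 945 bp, and CYP3A4, a liver cytochrome P450, had one of 681 bp, neither over a 5′ end. HBD, the delta globin of red cells, had one of 888 bp that covered its start.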
